A study of Rattus norvegicus with 12 samples.

Results

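The 9 genes described here control the start of blood clotting, its brakes and the dissolution of clots in the rat lung: F3, Tfpi2, Tfpi, Thbd, Procr, Vwf, Plat, Plau and Plaur. They are the probe sets of an Affymetrix rat array whose platform annotation names 1 of these symbols, 14 probe sets for 9 of the 14217 genes with a symbol of their own. The genes were chosen by name, with no stated threshold, when earlier results of these arrays were known, among them the large log2 difference of Tfpi2 between the heart failure lungs given ketotifen and the other lungs. Its values in the comparisons with that group, and in the interaction, are therefore given as a description without a test. The p-values of the other 8 genes come from the fit of the whole table, and since the record of the choice does not state which values led to them, they are no independent evidence of a direction.

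Whole lung RNA came from male Sprague-Dawley rats, 9 weeks after surgery performed when they were juvenile, with 3 arrays in each of 4 groups and 3 rats per arm in the design text. The CHF ketotifen and CHF placebo groups carried a band around the aorta above the heart, which produces left heart failure with raised pressure in the lung vessels, and the sham ketotifen and sham placebo groups had the same operation without the band. Ketotifen, a mast cell stabilizer that also blocks histamine receptors, was added to the drinking water at a daily dose of 1 mg per kg, and the placebo arm is called untreated in the design text. All values are log2 expression per probe set after GCRMA, and values of about 2 to 4 lie near background, where the size of a difference is uncertain.

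Clotting begins when tissue factor, the product of F3, meets factor VII of the blood. Tissue factor pathway inhibitor, the product of Tfpi, blocks that complex, while the related Kunitz-type inhibitor Tfpi2 acts mainly on plasmin and other proteases. On endothelium thrombomodulin (Thbd) turns thrombin into an activator of protein C, and the endothelial protein C receptor (Procr) presents protein C to it. Von Willebrand factor (Vwf), stored in endothelial cells and platelets, tethers platelets to the vessel wall. Fibrin is dissolved by plasmin, which is made from plasminogen by tissue-type (Plat) and urokinase-type (Plau) plasminogen activators, the second of them held at the cell surface by its receptor Plaur.

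The stretch before the gene start was taken from RefSeq on build GRCr8, which held 6 start sites for 5 of the 9 genes, Tfpi2, Tfpi, Plau, Plaur and Procr. F3, Thbd, Vwf and Plat are named only. The 250 bases before the start of Tfpi2, Plaur, Procr and Plau are shown because these genes were highest in the same group of lungs. Capitals mark the AP-1 motif TGANTCA, read on both strands, on which it has the same letters. The Tfpi2 stretch lies at chr4:32941277-32941526 on the minus strand, Plaur at chr1:89181113-89181362 on the plus strand, Procr at chr3:164714477-164714726 on the plus strand and Plau at chr15:3511988-3512237 on the minus strand.
Tfpi2: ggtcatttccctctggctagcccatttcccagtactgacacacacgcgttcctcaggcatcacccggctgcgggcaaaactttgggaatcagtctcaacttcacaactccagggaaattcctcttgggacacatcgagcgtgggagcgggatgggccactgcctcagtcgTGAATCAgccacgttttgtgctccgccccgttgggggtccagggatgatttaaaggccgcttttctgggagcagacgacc
Plaur: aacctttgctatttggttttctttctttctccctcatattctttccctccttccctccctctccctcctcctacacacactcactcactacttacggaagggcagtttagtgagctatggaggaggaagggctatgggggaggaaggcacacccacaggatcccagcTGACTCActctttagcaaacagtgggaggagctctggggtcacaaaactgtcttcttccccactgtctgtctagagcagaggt
Procr: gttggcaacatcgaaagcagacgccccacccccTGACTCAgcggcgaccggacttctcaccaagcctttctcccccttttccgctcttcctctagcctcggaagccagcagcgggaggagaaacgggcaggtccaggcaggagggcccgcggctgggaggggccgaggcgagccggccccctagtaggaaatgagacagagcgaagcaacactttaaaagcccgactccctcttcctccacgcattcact
Plau: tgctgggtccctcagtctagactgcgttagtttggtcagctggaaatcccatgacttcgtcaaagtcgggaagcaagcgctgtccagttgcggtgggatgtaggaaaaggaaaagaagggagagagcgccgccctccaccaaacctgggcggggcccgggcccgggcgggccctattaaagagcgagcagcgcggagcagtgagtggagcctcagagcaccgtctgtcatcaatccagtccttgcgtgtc
The AP-1 letters stood at -80 to -74 in Tfpi2, at -83 to -77 in Plaur and at -217 to -211 in Procr, counted from -1 at the base before the start. They were in neither the Plau stretch nor the stretches before both Tfpi starts. Of the 33469 stretches of the same length in the table, 6.34% held them. The KLF pattern CCNCNCCC, read on both strands, occurred before Tfpi2, Plau, Plaur, Procr and 1 of the Tfpi starts and in 42.8% of all stretches. The letters TATAAA were in none of the 6, against 12.9% of all. Neighbouring KLF matches overlapped each other in Procr, and no KLF match overlapped an AP-1 match. These matches describe letters and not bound sites.

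The lungs carried the markers of their labelled tissue, with Sftpc, the surfactant protein C gene of alveolar type 2 cells, averaging 15.83 in CHF ketotifen, 15.76 in CHF placebo, 15.73 in sham ketotifen and 15.63 in sham placebo lungs. Several arrays stood apart. The most alike pair of all was arrays 1 and 3 of the CHF ketotifen group (r = 0.993 across probe sets). Cardiomyocyte markers, 5 of 6 on the array, averaged 6.13 and 9.64 in sham ketotifen lungs 1 and 2 and 8.46 in sham placebo lung 3, and between 2.57 and 2.97 in the other 9 lungs. Degraded RNA widens the gap between the 3' and 5' probe sets for beta-actin, and that log2 gap was 4.52 in sham ketotifen lung 2 and 4.23 and 3.90 in sham placebo lungs 2 and 3, and at most 3.45 elsewhere. The number of arrays limits the precision, with 15809 to 16056 probe sets per array at a log2 value of at least 4.

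Tfpi2 stood high in the CHF ketotifen lungs, at 9.72, 9.29 and 9.37. It was at 4.38, 3.00 and 3.10 in CHF placebo lungs, at 3.07, 3.73 and 3.00 in sham ketotifen lungs and at 2.97, 3.10 and 2.93 in sham placebo lungs. The CHF ketotifen lungs lay apart from all others, and CHF placebo lung 1 was the only other lung above 4. The difference was 5.97 ± 0.34 (SE, n = 3 per group) against CHF placebo and 6.19 ± 0.34 against sham ketotifen. With CHF ketotifen arrays 1 and 3 averaged into a single sample these were 5.93 and 6.15. The probe set passed the filter of at least 4 in 3 arrays through that group, so a difference there was a condition of its being kept. Outside it, CHF placebo and sham placebo lungs differed by 0.49 ± 0.34 (limma adjusted p = 0.444), and sham ketotifen and sham placebo lungs by 0.27 ± 0.34 (adjusted p = 0.76), both near background.

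Tfpi, the inhibitor of the tissue factor complex, ran the other way. It was at 9.06, 8.92 and 8.99 in CHF ketotifen lungs, at 9.26, 10.11 and 9.87 in CHF placebo lungs, at 10.30, 9.69 and 9.71 in sham ketotifen lungs and at 9.58, 8.93 and 9.53 in sham placebo lungs. The CHF ketotifen lungs were below all CHF placebo and sham ketotifen lungs, and overlapped only with sham placebo lung 2. Tfpi fell by 0.91 ± 0.25 in CHF ketotifen against sham ketotifen lungs (adjusted p = 0.0374), and a dimmer probe set of the gene gave -1.59 ± 0.30 (adjusted p = 0.0108). The call of the brighter probe set ended without each of the 6 compared arrays in turn (adjusted p = 0.0591 to 0.108) and with CHF ketotifen arrays 1 and 3 averaged (adjusted p = 0.0836). It also ended without the arrays of lower RNA integrity (-1.02, adjusted p = 0.061), without the arrays with cardiomyocyte signal (-0.72, adjusted p = 0.35) and without a filter on low values (-0.91, adjusted p = 0.0764). Against CHF placebo the difference was -0.76 ± 0.25 (adjusted p = 0.156), and -1.01 without CHF placebo lung 1 (adjusted p = 0.0315). In sham rats the ketotifen lungs lay above the placebo lungs by 0.55 ± 0.25 (adjusted p = 0.354).

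F3, the gene of tissue factor, varied most among the sham placebo lungs. Its levels were 11.75, 11.17 and 11.63 in CHF ketotifen, 11.17, 10.33 and 9.56 in CHF placebo, 10.01, 10.13 and 10.13 in sham ketotifen and 9.80, 11.73 and 11.25 in sham placebo lungs. CHF ketotifen lungs were above every sham ketotifen lung and the lowest of them was level with the highest CHF placebo lung, while sham placebo lungs 2 and 3 lay within their range. No comparison of F3 passed. The difference was 1.43 ± 0.47 for CHF ketotifen against sham ketotifen (adjusted p = 0.0678; 0.00415 when only those groups were fitted) and 1.16 ± 0.47 against CHF placebo (adjusted p = 0.239). For CHF placebo against sham placebo it was -0.57 ± 0.47 (adjusted p = 0.521), which turned to 0.56 without the 3 arrays of lower RNA integrity. That run leaves sham placebo lung 1 (9.80) alone in its group. Sham placebo lungs 2 and 3 also had the highest ciliated cell signal (4 of 5 markers on the array), 8.64 and 7.39, against 3.99 to 5.79 in the other 10 lungs. Club cell markers, 2 of 3 on the array, were also highest there, at 13.83 and 13.44, against 8.91 to 12.53 in the others. In CHF ketotifen lungs, where F3 was 11.17 to 11.75, the ciliated means were 4.37 to 4.65 and the club means 8.91 to 10.64. The part of airway cells in the F3 values was not tested.

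**Figure D1:**
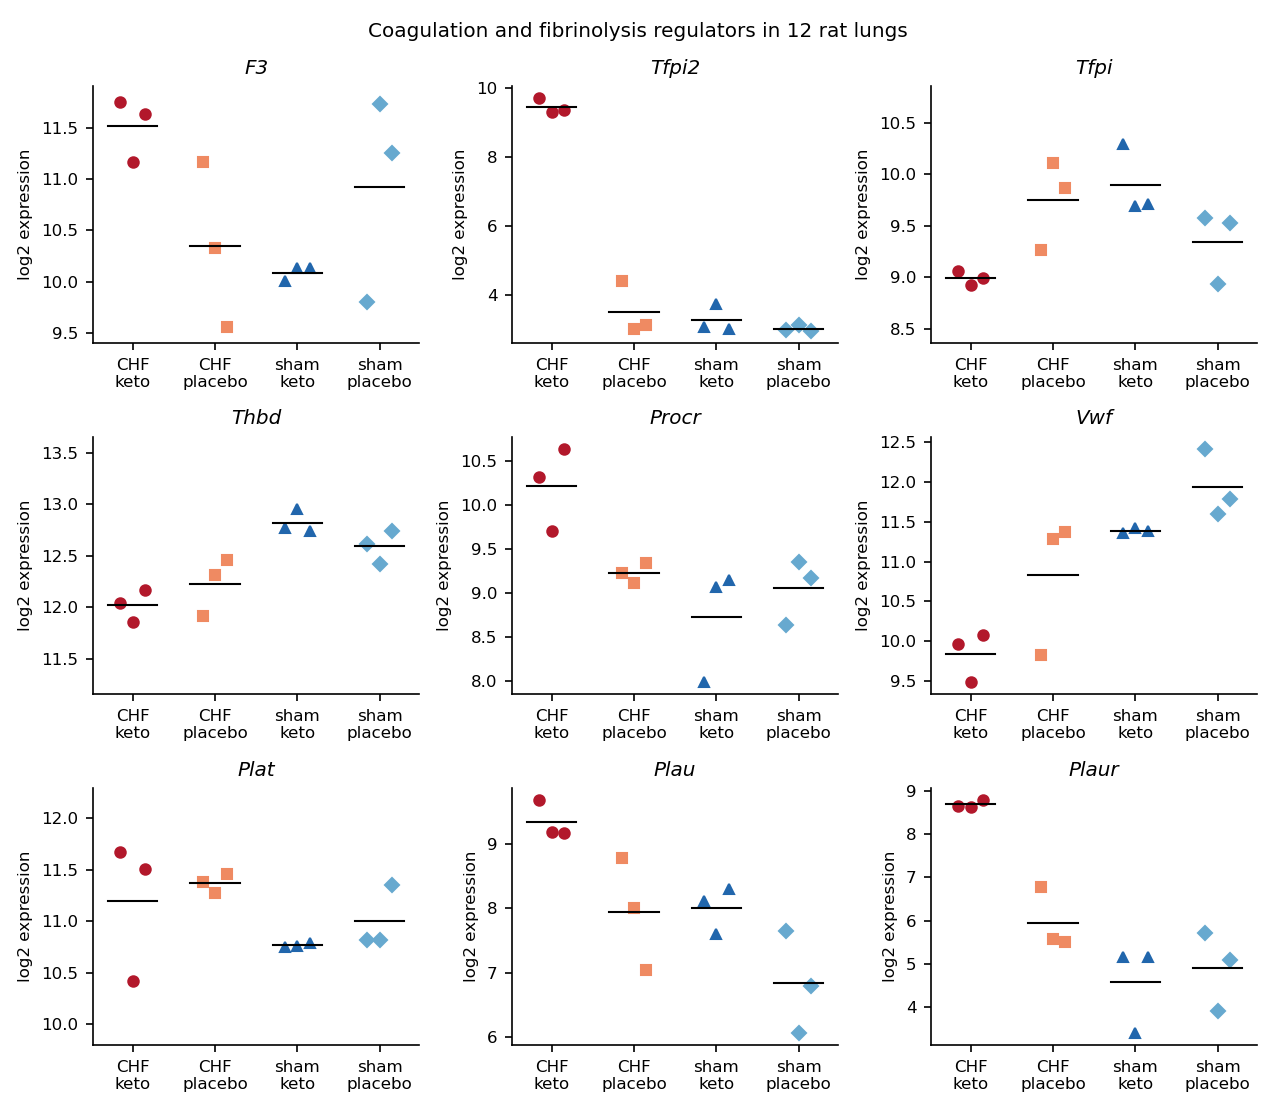
Log2 expression of the 9 genes in each lung, by the probe set of highest mean, with a line at each group mean; groups run from CHF ketotifen to sham placebo and each panel has its own vertical axis. The 3 CHF ketotifen lungs lie apart from the other 9 for Tfpi2 and Plaur and, by less, for Procr and Plau. CHF placebo lung 1, the leftmost square, lies near them for Vwf and Thbd.

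Thbd, the thrombomodulin gene, was at 12.04, 11.86 and 12.17 in CHF ketotifen, 11.91, 12.31 and 12.46 in CHF placebo, 12.77, 12.95 and 12.74 in sham ketotifen and 12.61, 12.42 and 12.74 in sham placebo lungs. All CHF ketotifen lungs were below all sham lungs, and CHF placebo lung 3 overlapped with the lowest sham placebo lung. Thbd fell by 0.80 ± 0.15 in CHF ketotifen against sham ketotifen lungs, a 1.74-fold difference (adjusted p = 0.0115). This call held without each of the 6 arrays in turn (adjusted p = 0.0258 to 0.0438), with arrays 1 and 3 of the CHF ketotifen group averaged (0.0308) and without the arrays of lower RNA integrity (0.0498). Without the 3 arrays with cardiomyocyte signal, which leaves 1 sham ketotifen lung, the difference was -0.72 (adjusted p = 0.234). A second probe set passed too (-1.07 ± 0.26, adjusted p = 0.026), and the dimmest did not (-0.79 ± 0.56, adjusted p = 0.362). That dimmest probe set was lowest in sham placebo lung 2 (5.75), a lung of lower RNA integrity that is not in this comparison. The other lungs of lower RNA integrity, sham ketotifen lung 2 and sham placebo lung 3, were at 7.60 and 7.36. CHF ketotifen lung 2 was the next lowest (6.52). Against CHF placebo lungs the difference was -0.21 ± 0.15 (95% interval -0.54 to 0.13, adjusted p = 0.519), and CHF placebo lungs differed from sham placebo lungs by -0.36 ± 0.15 (adjusted p = 0.223).

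Procr, the receptor gene of the same protein C pathway, moved in the opposite direction to Thbd. It was at 10.32, 9.70 and 10.64 in CHF ketotifen lungs, at 9.23, 9.11 and 9.34 in CHF placebo lungs, at 7.98, 9.06 and 9.14 in sham ketotifen lungs and at 8.63, 9.35 and 9.17 in sham placebo lungs. The CHF ketotifen lungs were above all other lungs, and the remaining groups overlapped. Procr rose by 1.49 ± 0.32 in CHF ketotifen against sham ketotifen lungs, 2.81-fold (adjusted p = 0.0175). The call ended without CHF ketotifen lung 1 (adjusted p = 0.0536) or lung 3 (adjusted p = 0.0599), with those arrays averaged (1.36, adjusted p = 0.057), and without the arrays with cardiomyocyte signal (1.07, adjusted p = 0.256). Against CHF placebo the difference was 0.99 ± 0.32 (adjusted p = 0.157), and for CHF placebo against sham placebo it was 0.18 ± 0.32 (adjusted p = 0.804).

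Vwf fell in the CHF ketotifen lungs, where it was at 9.96, 9.48 and 10.08. It was at 9.83, 11.28 and 11.37 in CHF placebo lungs, at 11.36, 11.42 and 11.38 in sham ketotifen lungs and at 12.42, 11.60 and 11.79 in sham placebo lungs. CHF placebo lung 1 lay among the CHF ketotifen lungs, and the other 2 CHF placebo lungs lay at the sham ketotifen level. The fall was 1.55 ± 0.36 against sham ketotifen, 2.92-fold (adjusted p = 0.0225). Without CHF ketotifen lung 3 it was still called (adjusted p = 0.0479), and without each of the other 5 arrays it was not (-1.61 to -1.37, adjusted p = 0.0537 to 0.0837). The call also ended, at a similar size, with the 2 like arrays averaged (-1.64, adjusted p = 0.0516), without a filter (-1.55, 0.0538), without the arrays of lower RNA integrity (-1.53, 0.0706) and without those with cardiomyocyte signal (-1.54, adjusted p = 0.278). Against CHF placebo Vwf differed by -0.99 ± 0.36 (adjusted p = 0.196), and by -1.49 without CHF placebo lung 1 (adjusted p = 0.00667). CHF placebo lungs were below all sham placebo lungs, by 1.11 ± 0.36 on the log2 scale (adjusted p = 0.148).

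Most other endothelial markers were lower, like Vwf and Thbd, in CHF ketotifen than in sham ketotifen lungs. Of 8 endothelial markers 7 were on the array and kept, and their mean was 10.30 to 10.83 in CHF ketotifen, 10.49 to 11 in CHF placebo, 11.11 to 11.48 in sham ketotifen and 11.04 to 11.22 in sham placebo lungs. Between CHF ketotifen and sham ketotifen lungs 4 were called lower (6.61% of all probe sets) and 1 was called higher (6.36%). Kdr, a receptor for vascular endothelial growth factor, was at -1.75 (adjusted p = 0.00738) and the tight junction gene Cldn5 at -1.31 (adjusted p = 0.00447). The platelet and endothelial adhesion gene Pecam1 was at -0.15 (adjusted p = 0.611), and Egfl7, a gene of the vessel wall, was the one that rose (1.69, adjusted p = 0.0213). Against CHF placebo lungs Cldn5 alone was called (-1.16, adjusted p = 0.0191), where 0.393% of all probe sets were lower. In CHF placebo against sham placebo lungs 0 of the 7 were called, where 0.145% of all probe sets were higher and 0.0242% lower. The median of the 7 there was -0.44. In whole lung RNA fewer cells of a type and less RNA per cell cannot be told apart, and the part of endothelial content in the Vwf and Thbd values was not tested.

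Plaur, the urokinase receptor gene, was at 8.64, 8.63 and 8.79 in CHF ketotifen lungs, at 6.77, 5.57 and 5.51 in CHF placebo lungs, at 5.15, 3.40 and 5.17 in sham ketotifen lungs and at 5.71, 3.92 and 5.10 in sham placebo lungs. The CHF ketotifen lungs were above all others by a wide margin and hardly differed among themselves. Plaur rose by 4.11 ± 0.55 against sham ketotifen lungs, 17.3-fold (adjusted p = 0.00235), in each of the 6 runs without 1 array (3.52 to 4.41, adjusted p at most 0.0128) and with the like arrays averaged (4.10, adjusted p = 0.0128). Without the 3 arrays with cardiomyocyte signal the difference was 3.51 (adjusted p = 0.134). Against CHF placebo lungs it rose by 2.73 ± 0.55, 6.65-fold (adjusted p = 0.0399). That call held without CHF placebo lung 1 (adjusted p = 0.0126) and ended without each of the other 5 arrays (2.51 to 2.76, adjusted p = 0.106 to 0.196) and with the like arrays averaged (2.72, adjusted p = 0.115). It ended at the same difference of 2.73 without a filter on low values (adjusted p = 0.0925) and without the arrays with cardiomyocyte signal (adjusted p = 0.0908), none of which is a CHF array. The probe set carries the suffix that marks probes shared by several transcripts. The other Plaur probe set stayed between 2.32 and 2.38 on all arrays, at background, and did not pass the filter.

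Plau, the urokinase gene, was highest in the same lungs. It was at 9.69, 9.19 and 9.17 in CHF ketotifen, 8.79, 8.01 and 7.04 in CHF placebo, 8.11, 7.60 and 8.31 in sham ketotifen and 7.65, 6.06 and 6.80 in sham placebo lungs. The CHF ketotifen lungs lay above all others, but the spread within the CHF placebo and sham placebo groups was wide, and no comparison passed. The difference was 1.34 ± 0.46 against sham ketotifen (adjusted p = 0.0735; 0.0136 when only those groups were fitted). It was 1.40 ± 0.46 against CHF placebo (adjusted p = 0.154), and 1.82 without CHF placebo lung 1 (adjusted p = 0.0365). Sham ketotifen lungs were at 1.17 ± 0.46 over sham placebo lungs (adjusted p = 0.307). A dimmer Plau probe set was also highest on average in CHF ketotifen lungs and lowest in sham placebo lungs, at 8.37, 7.36 and 7.20 in CHF ketotifen lungs and 4.95, 2.32 and 2.78 in sham placebo lungs.

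Plat, the gene of the tissue-type activator that endothelial cells release into the blood, was at 11.67, 10.42 and 11.51 in CHF ketotifen, 11.38, 11.27 and 11.46 in CHF placebo, 10.75, 10.76 and 10.79 in sham ketotifen and 10.82, 10.82 and 11.35 in sham placebo lungs. CHF ketotifen lung 2 lay below all other lungs and its companions above them. Against sham ketotifen lungs the difference was 0.44 ± 0.27 (adjusted p = 0.299), and 0.83 without CHF ketotifen lung 2 (adjusted p = 0.0249). Against CHF placebo it was -0.17 ± 0.27 (95% interval -0.77 to 0.44, adjusted p = 0.8), and 0.22 without that lung. CHF placebo lungs were at 0.37 ± 0.27 over sham placebo lungs (adjusted p = 0.471).

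**Figure D2:**
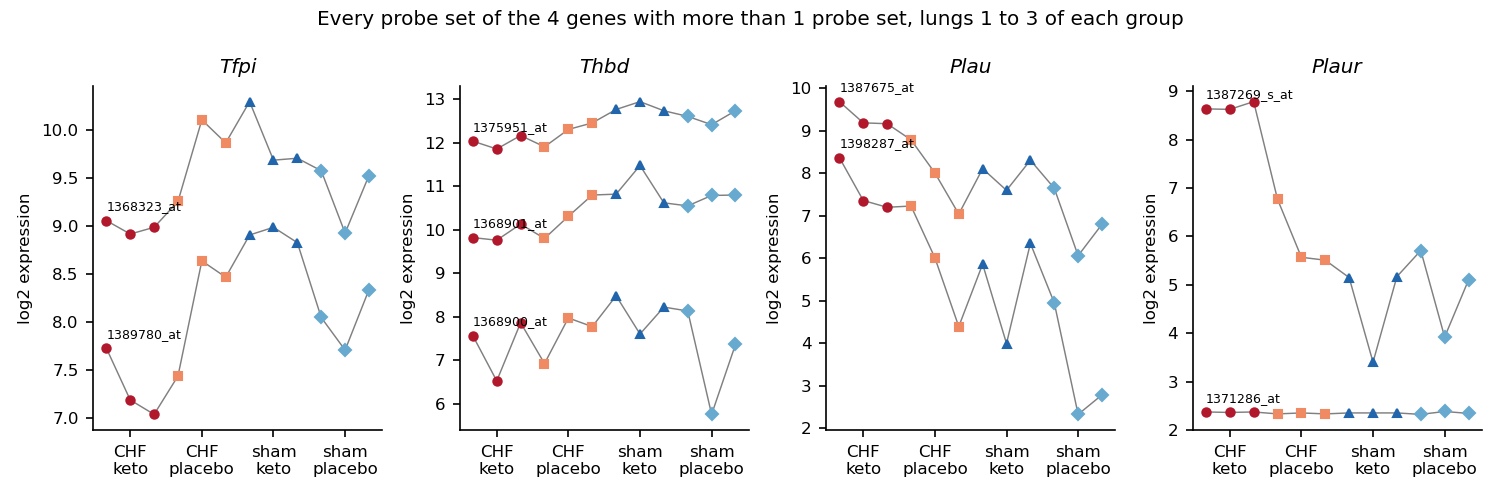
Log2 expression of every probe set of Tfpi, Thbd, Plau and Plaur in lungs 1 to 3 of each group, from CHF ketotifen on the left to sham placebo on the right, with lines joining the values of a probe set. Both Tfpi probe sets are lower in CHF ketotifen than in sham ketotifen lungs, and 1 Plaur probe set stays between 2.32 and 2.38.

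Macrophage markers, 5 of 6 on the array, were highest on average in CHF ketotifen lungs, as Plaur and Plau were. Their mean was 9.50 to 9.69 in CHF ketotifen, 8.14 to 9.42 in CHF placebo, 7.60 to 7.85 in sham ketotifen and 6.13 to 7.73 in sham placebo lungs, and CHF placebo lung 1 was the highest of its group for the markers, Plaur and Plau alike. In that lung the marker mean was 9.42 and Plaur was 6.77, which are values of 1 lung. Of the 5, 4 rose in CHF ketotifen against sham ketotifen lungs, where 6.36% of all probe sets did. Among them was the complement gene C1qa (2.35, adjusted p = 0.00363). Against CHF placebo lungs, where Plaur was called, 0 of the 5 markers were, and 0.822% of all probe sets were called higher. The marker differences there ran from 0.66 to 1.27, with a median of 1.03. In sham ketotifen against sham placebo lungs the marker median was 0.96, with 0 of the 5 called (0.0423% of all probe sets in either direction). Plaur was at -0.34 ± 0.55 there (limma adjusted p = 0.818). Neutrophil markers, 5 on the array, averaged 5.86 to 7.15 in CHF ketotifen and 4.27 to 5.55 in the other lungs, with the receptor gene Cxcr2 near background in every group (means of 2.24 to 2.44). Il1r2, a decoy receptor for interleukin-1, averaged 5.28 in CHF ketotifen, 2.66 in CHF placebo, 2.57 in sham ketotifen and 2.44 in sham placebo lungs. The calprotectin genes S100a8 and S100a9 were at 2.40 ± 0.77 (adjusted p = 0.152) and 1.97 ± 0.69 (adjusted p = 0.181) in CHF ketotifen against CHF placebo lungs. The mesothelial list, 4 of 5 on the array, was at 7.30 to 7.71 in CHF ketotifen and 5.99 to 8.11 in the other lungs, and of its 4 genes Wt1 alone rose (2.55 against sham ketotifen, adjusted p = 0.00926, and 2.58 against CHF placebo, adjusted p = 0.0248). The part of these cells in the Plaur, Plau, Procr and Tfpi2 values was not tested.

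**Figure D3:**
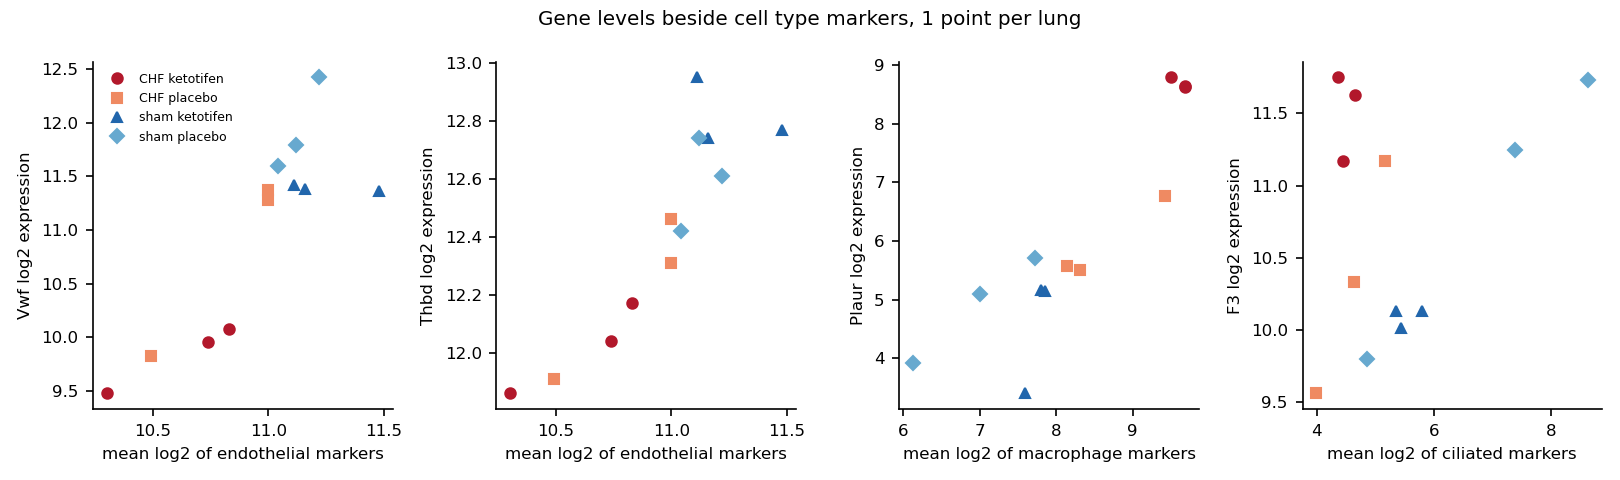
Log2 expression of Vwf, Thbd, Plaur and F3 (vertical axes) against the mean log2 level of cell type markers (horizontal axes), 1 point per lung. The CHF ketotifen lungs and CHF placebo lung 1 sit at the low end of the endothelial markers and of Vwf and Thbd. Sham placebo lungs 2 and 3 sit at the high end of the ciliated markers with F3 at 11.73 and 11.25. The CHF ketotifen lungs have F3 at 11.17 to 11.75 with ciliated means of only 4.37 to 4.65.

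Each comparison was then set against all 16536 probe sets kept, leaving out Tfpi2 where CHF ketotifen lungs were compared. In CHF ketotifen against sham ketotifen lungs 2 of the other 8 genes were called higher (Plaur and Procr), where 6.36% of all probe sets were, and 3 lower (Tfpi, Thbd and Vwf), where 6.61% were. The groups lay apart for 4 of the 8 that were higher (19.2% of all probe sets) and 3 that were lower (20.8%). The median of the 8 was 0.89, against -0.03 over all probe sets. With CHF ketotifen arrays 1 and 3 averaged Plaur and Thbd were called, and without the 3 arrays with cardiomyocyte signal none of the 8 was. Against CHF placebo lungs 1 of the 8 was higher (Plaur), with 0.822% of all probe sets, and 0 were lower, with 0.393%. The groups did not overlap for 3 that were higher (9.86% of all probe sets) and 1 that was lower (15.5%). Without CHF placebo lung 1 Plau was called as well, and Tfpi and Vwf were called lower. That run called 1219 of all probe sets, against 201 in the full fit. Without any other array of these groups, or with the like arrays averaged, none of the 8 was called. The median of the 8 was 0.41, against -0.04. Since results with this group were known when the genes were chosen, nothing is read from these shares.

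Heart failure without drug gave no call among the 9 genes. In CHF placebo against sham placebo lungs limma called 0 higher and 0 lower, with 0.145% and 0.0242% of all probe sets, while 3326 of the 16536 had an unadjusted p under 0.05. The groups lay apart for 0 genes that were higher (12.7% of all probe sets) and for Vwf alone among those lower (10.7%). The median of the 9 was 0.37, against 0.02. In sham ketotifen against sham placebo lungs 0 were called, with 0.0423% of all probe sets in either direction and 2310 at an unadjusted p under 0.05, and the median was -0.23, against 0 over all probe sets. There the groups lay apart for Tfpi and Thbd, which were higher (7.5% of all probe sets), and for Vwf and Plat, which were lower (8.87%). The 2 comparisons with CHF ketotifen share that group, and their values are given side by side for that reason.

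**Figure D4:**
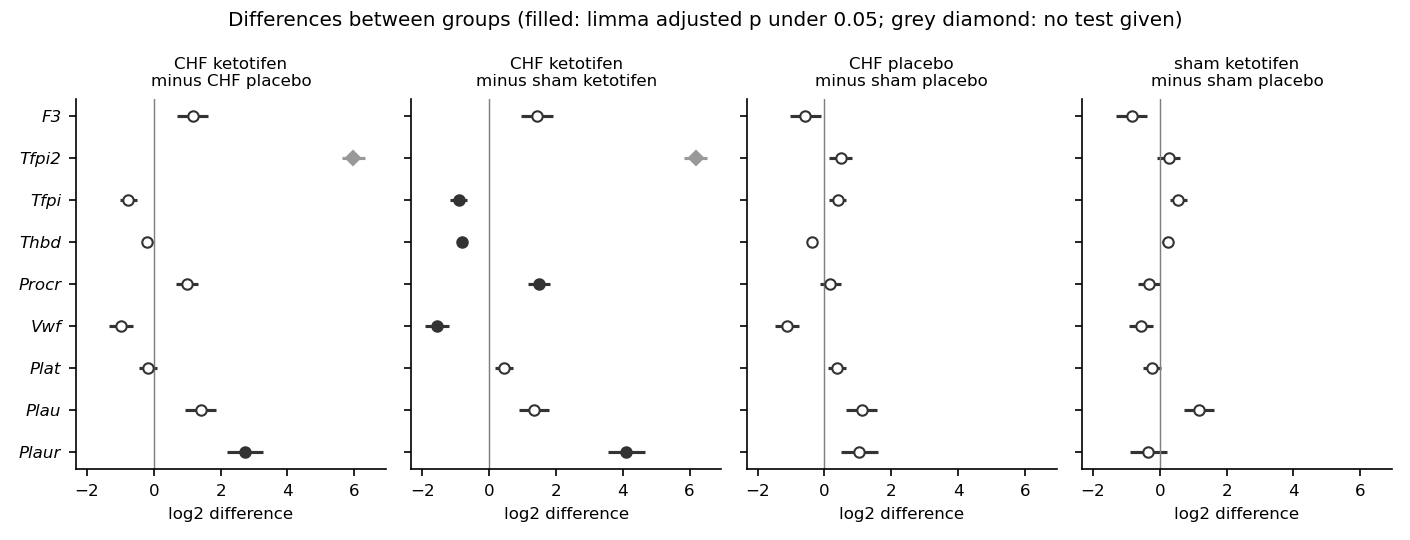
Log2 difference with its standard error for each gene in 4 comparisons, the first-named group minus the second, with filled circles for an adjusted p under 0.05 and grey diamonds for Tfpi2 where no test is given. Against sham ketotifen lungs Plaur and Procr lie to the right and Tfpi, Thbd and Vwf to the left, and the CHF placebo panel has no filled circle.

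The interaction, the drug difference in CHF rats minus that in sham rats, was 5.70 ± 0.48 for Tfpi2. Of the other 8 genes 0 passed in limma, with 1778 of all probe sets at an unadjusted p under 0.05. Plaur was at 3.07 ± 0.78 (adjusted p = 0.173), F3 at 2.00 ± 0.67 (adjusted p = 0.31), Tfpi at -1.32 ± 0.35 (adjusted p = 0.2) and Procr at 1.31 ± 0.46 (adjusted p = 0.344). Without CHF placebo lung 1 the Tfpi value was -1.56 (adjusted p = 0.0395), and without sham placebo lung 1 the F3 value was 2.57 (adjusted p = 0.0436). Those runs called 303 and 195 of all probe sets, against 61 in the full fit. Over all probe sets 0.254% were called higher and 0.115% lower for the interaction.

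CHF placebo lung 1 was closer to the CHF ketotifen lungs than the rest of its group, over the whole array. Across probe sets its r with CHF ketotifen arrays 1, 2 and 3 was 0.974, 0.965 and 0.974. With CHF placebo arrays 2 and 3 it was 0.966 and 0.947. For 7 of the 9 genes, all but Plat and Procr, it was the lung of its group nearest to the CHF ketotifen mean. The share of all probe sets with that order was not counted, so the 7 are not read as a trait of these genes. Vwf (9.83) and Thbd (11.91) of CHF placebo lung 1 lay within the CHF ketotifen range, while its Tfpi2 (4.38) and Plaur (6.77) were far below it.

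The other genes of the pathway came from a list of 45, of which 35 were on the array and 15 were kept. Selp, P-selectin, an adhesion molecule of platelets and endothelium, passed the filter only through the CHF ketotifen lungs (4.80, 6.47 and 4.40) and is given with no test there, at 1.93 ± 0.45 against sham ketotifen and 1.81 ± 0.45 against CHF placebo. Of the other 14, 5 were higher in CHF ketotifen than in sham ketotifen lungs (6.36% of all probe sets) and 0 lower (6.61%), with a median of 0.48, against -0.03 over all probe sets. Serpine2, protease nexin-1, an inhibitor of thrombin and of plasminogen activators, rose by 2.18 ± 0.48 (adjusted p = 0.0177), with 8.99, 8.98 and 8.91 in CHF ketotifen against 5.85, 7.14 and 7.36 in sham ketotifen lungs. It was at 8.66, 7.84 and 7.58 in CHF placebo and 6.70, 8.44 and 7.91 in sham placebo lungs. Against CHF placebo the Serpine2 difference was 0.93 ± 0.48 (limma adjusted p = 0.342). Sham ketotifen lungs were at -0.90 ± 0.48 against sham placebo lungs (limma adjusted p = 0.422). S100a10, which with annexin A2 forms a plasminogen receptor, rose by 0.86 ± 0.22 (adjusted p = 0.033), and Lrp1, the receptor that clears activator and inhibitor complexes, by 0.59 ± 0.14 (adjusted p = 0.0228). Fgg, the fibrinogen gamma chain, rose by 1.50 ± 0.43 (adjusted p = 0.0441), and the platelet chemokine Pf4 by 1.47 ± 0.37 (adjusted p = 0.0295).

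The count was unstable. With Selp included it was 6 in the full fit, and 1, 1 and 3 without CHF ketotifen lungs 1, 2 and 3, and 0, 2 and 1 without sham ketotifen lungs 1, 2 and 3. With the like arrays averaged it was 1, and without the arrays with cardiomyocyte signal 0. F2r, the thrombin receptor gene, was at 0.35 ± 0.19 (adjusted p = 0.22) and F8, the factor VIII gene whose protein travels bound to Von Willebrand factor, at -0.82 ± 0.26 (adjusted p = 0.0635). Against CHF placebo lungs 0 of the 14 passed in limma, with 2833 probe sets at an unadjusted p under 0.05. The smallest p of the 14 was that of Lrp1 (0.48 ± 0.14, adjusted p = 0.116), and their median was 0.26. With Selp included, the count without CHF placebo lung 1 was 3, in a run that called 1219 of all probe sets, against 201 in the full fit.

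In CHF placebo against sham placebo lungs limma also called 0 of the 15. Fgg was at 1.56 ± 0.43 (adjusted p = 0.119), Pf4 at 1.32 ± 0.37 (adjusted p = 0.122) and F8 at -0.73 ± 0.26 (adjusted p = 0.171), with a list median of 0.31. The count was 3 without sham placebo lung 1, in a run that called 1496 of all probe sets, against 28 in the full fit. In sham ketotifen against sham placebo lungs 0 passed. Lrp1 had the smallest p there (-0.41 ± 0.14, adjusted p = 0.284), and F5, the factor V gene, was at -1.71 ± 0.65 (adjusted p = 0.302). For the interaction 0 of the 14 genes other than Selp passed, and Lrp1 was at 0.89 ± 0.20 (adjusted p = 0.12). Several genes of plasma proteins that the liver makes, named here after their values were seen, stayed at background on all 12 arrays, with F2 (prothrombin) between 2.18 and 2.26, F10 between 2.28 and 2.34, Plg (plasminogen) between 2.07 and 2.41, and the fibrinogen chains Fga and Fgb at most 2.90 and 2.71. Of the platelet markers Pf4 alone was kept, and Ppbp and Gp9 averaged 2.11 to 2.21 in every group.

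**Figure D5:**
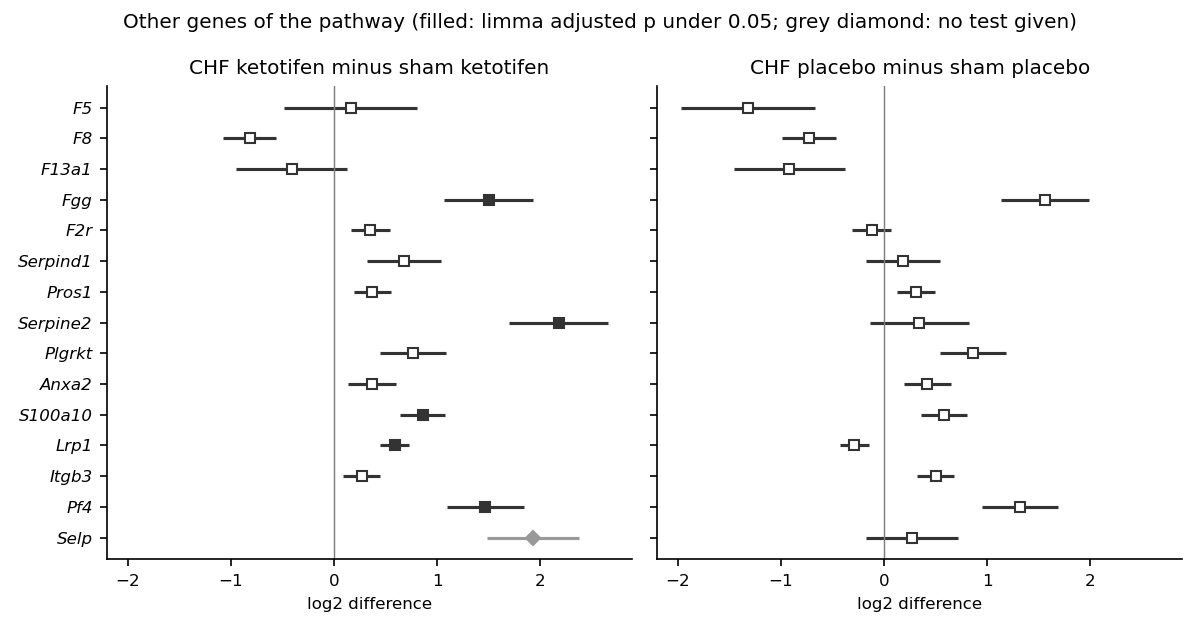
Log2 difference with its standard error for the 15 kept genes of the pathway list in CHF ketotifen minus sham ketotifen lungs (left) and CHF placebo minus sham placebo lungs (right), filled for an adjusted p under 0.05, with a grey diamond for Selp where no test is given. Serpine2, Fgg, Pf4, S100a10 and Lrp1 are filled on the left and none on the right.

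The genes whose profiles over the 12 arrays were most like Tfpi2 were Depdc1, Cxcl2 and Adamts4 (Pearson r = 0.995 each), Ccl7 (0.993) and Il6 (0.99). For Tfpi2 the 12 points fall into the 3 CHF ketotifen lungs and the other 9, so that these r reflect that split. Thbd was most like Sox13 (0.962), Tjp1 (0.951), the endothelial receptor genes Tie1 (0.951) and Kdr (0.948), and Pltp (0.948). Vwf was most like Ptprb (0.975), an endothelial phosphatase gene, Hipk2 (0.97), Ezh1 (0.969), Mettl7a (0.965) and Sec14l1 (0.963). Among the 9 genes themselves Tfpi2 and Plaur had r = 0.89, Vwf and Thbd 0.83, and Tfpi and F3 -0.82, all over the same 12 lungs and with the group differences included.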

How the data were processed

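RNA of 12 whole lungs was measured on Affymetrix Rat Genome arrays. The deposited values are log2 expression per probe set, which the authors made with GCRMA, and the submitters' processing notes name R 2.5.0. Further settings are not given in the sources. Groups and replicate numbers came from the sample titles, and the labels name no batch. Symbols came from the platform annotation, 1 symbol for 20826 of 31042 probe sets, several for 436 and none for 9780, after 57 control probe sets were left out.

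A probe set was kept at a log2 value of at least 4 in at least 3 arrays, which left 16536. Limma 3.58.1 in R 4.3.3 fitted 4 group means to all 12 arrays, with eBayes and an intensity trend, two-sided, with Benjamini-Hochberg adjustment over the probe sets kept and a call under 0.05. SE and 95% intervals are of that fit. A gene is represented by its brightest probe set, with all probe sets of the 9 genes given. Named pathway genes are those of smallest p (up to 6 per comparison, described in part), with F2r and the fibrinogen chains. F8 is also named in CHF ketotifen against sham ketotifen lungs, where its p ranked 7. One further gene of the rule is not reported here. The members and lists were chosen with earlier results of these data known. Alternatives were other filters, eBayes settings, array weights, centring, a replicate block, arrays left out or averaged, and, chosen after seeing the data, leaving out the 3 arrays with cardiomyocyte signal. Array weights used the gene-by-gene method, because the default stopped before it converged.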

Additional observations from a re-analysis of the deposited data

Results flagged for a closer look

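Tfpi2 stood out because the drug difference in CHF rats exceeded that in sham rats by 5.70 ± 0.48 on the log2 scale, by an interaction term of the fit over 12 arrays. It was 5.97 between CHF ketotifen and CHF placebo lungs and 0.27 between sham ketotifen and sham placebo lungs. The gene had been chosen with this pattern known, so the value is a description. In both sham groups and in 2 of the 3 CHF placebo lungs the probe set was near background, which leaves the size uncertain.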

How the results depend on the processing

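Counts of the 9 genes include Tfpi2 and counts of the pathway list include Selp. The differences of both genes against CHF ketotifen lungs, and in the interaction, are read as descriptions, and the counts are no test of them. Outside the runs that leave out 1 array, 439 of 486 alternative values of the 9 genes kept their direction and their side of the threshold. With array weights 7 genes were called in CHF ketotifen against CHF placebo lungs, 3 in CHF placebo against sham placebo lungs and 5 for the interaction, and of the pathway list 7, 7 and 2, with 2 in sham ketotifen against sham placebo lungs. In CHF ketotifen against CHF placebo lungs 1 gene was called with no filter, with CHF ketotifen arrays 1 and 3 averaged, or without the 3 arrays with cardiomyocyte signal. In CHF ketotifen against sham ketotifen lungs the genes called were 3 with those arrays averaged and 1 without the cardiomyocyte arrays, and the pathway genes 3 with no filter, 1 averaged, 3 without the arrays of lower RNA integrity and 0 without the cardiomyocyte arrays. For the interaction the Tfpi2 value without the 1 or the other set of 3 arrays was 5.9 and 6 on the log2 scale, against 5.70 with all arrays. Each of these runs leaves a sham group with 1 array, which is assumed to vary like the others. Over runs without 1 array the genes called ranged from 1 to 5 for CHF ketotifen against CHF placebo, 3 to 5 for CHF ketotifen against sham ketotifen, 1 to 2 for the interaction and 0 to 0 for the other comparisons. The pathway genes ranged from 0 to 1 for sham ketotifen against sham placebo and for the interaction, and from 0 to 3 for the others. Over all probe sets the calls without 1 array ranged from 72 to 1219 for CHF ketotifen against CHF placebo (201 with all arrays), 766 to 1121 against sham ketotifen (2145), 0 to 1496 for CHF placebo against sham placebo (28), 4 to 722 for sham ketotifen against sham placebo (14) and 21 to 303 for the interaction (61). With array weights they were 4134, 4139, 3236, 702 and 1132. The causes of these shifts in the counts were not tested.

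Reversals were of values that had not been called. In CHF ketotifen against CHF placebo lungs Plat turned to 0.19 with array weights and ranged from -0.40 to 0.22 without 1 array. In CHF placebo against sham placebo lungs F3 turned to 0.56 without the arrays of lower RNA integrity, and Procr ranged from -0.03 to 0.33 without 1 array. Here and below, a run without the arrays of lower RNA integrity leaves sham placebo lung 1 alone in its group. In sham ketotifen against sham placebo lungs F3 turned to 0.27 without the arrays of lower integrity, and Tfpi2 to -0.03, Plaur to 0.36 and Procr to 0.15 without the cardiomyocyte arrays. There Plaur ranged from -0.83 to 0.25 and Procr from -0.53 to 0.05 without 1 array. For the interaction Vwf turned to 0.06 and Plat to -0.12 without the arrays of lower integrity, Plat to -0.13 with the like arrays averaged and to -0.13 without the cardiomyocyte arrays, and Plau to -0.06 without them. Plat ranged from -0.17 to 0.45 and Plau from -0.22 to 0.66 without 1 array. Same-numbered arrays did not deviate together in all pairs (r from -0.35 to 0.26), so the numbers were not taken as pairs. With the replicate block 6 genes were called in CHF ketotifen against sham ketotifen lungs, as without it, with Plau gained (adjusted p = 0.0447) and Tfpi lost (adjusted p = 0.0581).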
